A study of Brassica napus with 18 samples.

Results

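The ABF and ABI5 bZIP factors are the transcription factors that carry abscisic acid (ABA) signals to promoters. They were taken as every gene whose Swiss-Prot annotation names ABSCISIC ACID-INSENSITIVE 5 or an ABSCISIC ACID-INSENSITIVE 5-like protein. This rule found 32 of the 108207 genes in the expression table of Brassica napus (oilseed rape), an allotetraploid with an A and a C subgenome. Named by the Arabidopsis gene of each Swiss-Prot entry, there were 2 copies of ABF1, 2 of ABF2, 3 of ABF3, 6 of ABF4, 5 of ABI5, 7 of DPBF3 (also called AREB3), 3 of DPBF4 (also called EEL), 2 of DPBF2 and 2 of BZIP15. By identifier, 15 copies lie on A and 17 on C chromosomes. All 32 also carried the KEGG orthology entry ABF, which the rule did not use and which 36 genes of the table carry. The other 4 are copies of G-box-binding factor 4, a member of the same bZIP group. No nucleotide or protein sequence was used here.

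In Arabidopsis, ABA made under drought or salt binds PYR/PYL receptors, which then hold clade A type 2C protein phosphatases (PP2Cs) inactive. This frees SnRK2 kinases, which phosphorylate the bZIP factors. The factors bind the ABA-responsive element (ABRE) in promoters of genes such as RAB18. ABF2, ABF3 and ABF4 are known there as the factors of osmotic stress in vegetative tissue, whereas ABI5, DPBF2, DPBF3 and DPBF4 are known mostly from seeds and germination.

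Poly(A) RNA of aboveground parts, labelled leaf, was sequenced from plants grown for 3 weeks in Hoagland's nutrient solution, in 18 libraries. The bnagrp3 mutant and the wild type (WT) each gave 3 mock libraries, 3 after 4 h in 200 mM NaCl and 3 after 8 h in 200 mM NaCl. The design names 1 mutant line, and the labels give neither the copies mutated nor the way the mutation was made. The mock columns are headed 0 h, and no mock sampled 4 h or 8 h later was used here. Nothing states that replicates are separate plants, so p-values reflect only differences among the libraries at hand, and these can be technical. The table holds TPM, a length-scaled share of the transcripts in a library, which keeps no read depth, so the depth behind each value is unknown. In bulk RNA, fewer cells of a type and less RNA per cell cannot be told apart.

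Some facts of the whole series bear on what follows. Of 13 genes annotated as glycine-rich protein 3, the family the mutant is named for, 3 lay lower in bnagrp3 than in WT without overlap in every treatment. The most abundant of these 3, whose identifier names no chromosome, stood at 0 to 4.51 TPM in bnagrp3 and 376.2 to 2799 TPM in WT. BnaA07G0050000ZS, another of them, stood at 0.88 to 11.2 TPM in the 9 bnagrp3 libraries and at 16.9 to 137 TPM in the 9 WT libraries. Bnascaffold0025G0035900ZS went the other way, at 6.13 to 160.3 TPM in bnagrp3 and 0.9 to 6.56 TPM in WT. The most abundant pair, BnaC03G0480300ZS and BnaA03G0387800ZS, overlapped, at 1046 to 3067 and 684.1 to 1774 TPM in bnagrp3 and 1676 to 4391 and 1269 to 2627 TPM in WT. The leaf label was matched by Rubisco small subunit transcripts, whose sum was 20749 to 78702 TPM, and by chlorophyll a-b binding transcripts at 42125 to 92733 TPM. Of the root markers, both Casparian strip genes were at 0 in every library, and 9 SHR and SCR genes, also active in leaves, summed to 27.4 to 48.1 TPM. Of the seed markers, cruciferins reached at most 0.2 TPM and Em-like genes 0.96 to 4.26 TPM. Napin-type albumins summed to 1.84 to 6.41 TPM in bnagrp3 and 10.2 to 25.9 TPM in WT. Oleosins went the other way in mock, at 5.58 to 6.99 TPM in bnagrp3 and 1.94 to 4.02 TPM in WT, and were higher under NaCl in both genotypes, reaching 12.1 to 16.3 TPM in bnagrp3 and 9.61 to 10.99 TPM in WT at 8 h. The part of these seed transcripts in the results was not tested. The WT libraries were not alike. A set of 326 transcripts, picked with the values already known, reached 5 TPM in each of the 9 bnagrp3 libraries yet stayed at 0.2 TPM or below in 2 or more WT libraries. None of them is an ABF or ABI5 copy. Their median level, relative to bnagrp3 of the same treatment, was 0.232, 0.254 and 0.214 in WT mock replicates 1 to 3, 0, 0.67 and 0.233 in WT NaCl 4 h replicates 1 to 3, and 0.168, 0 and 0.369 in WT NaCl 8 h replicates 1 to 3. By this set, WT NaCl 4 h replicate 2 and WT NaCl 8 h replicate 3 stood nearest to bnagrp3, and results that rest on them are given with and without them. The choice of the set itself asks for low values in some WT libraries. Nearest to bnagrp3 refers to these 326 transcripts only, here and below, and not to whole libraries.

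Summed over all 32 copies, the factors were more than 5 times as abundant under salt as in mock in both genotypes, and ABF3 and ABF2 made up most of the difference. These sums were not tested. The sums in bnagrp3 were 92.6 ± 8.85 TPM in mock, 502.9 ± 12.3 at 4 h and 540.2 ± 8.54 at 8 h (SD, n = 3). In WT they were 97.3 ± 8.38, 557 ± 27.3 and 526.6 ± 26.8 TPM (SD, n = 3). The ratios of means to mock were 5.43 and 5.83 in bnagrp3 and 5.72 and 5.41 in WT. ABF3 held 27.4% of the bnagrp3 sum in mock, 50% at 4 h and 49.4% at 8 h, and 28%, 52.8% and 51.8% of the WT sum. The share of ABF4 was 26.1%, 15.5% and 15% in bnagrp3 and 31.1%, 15.2% and 14.9% in WT. In mock ABF4 was thus near ABF3 in level, and under salt far below it.

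**Figure D1:**
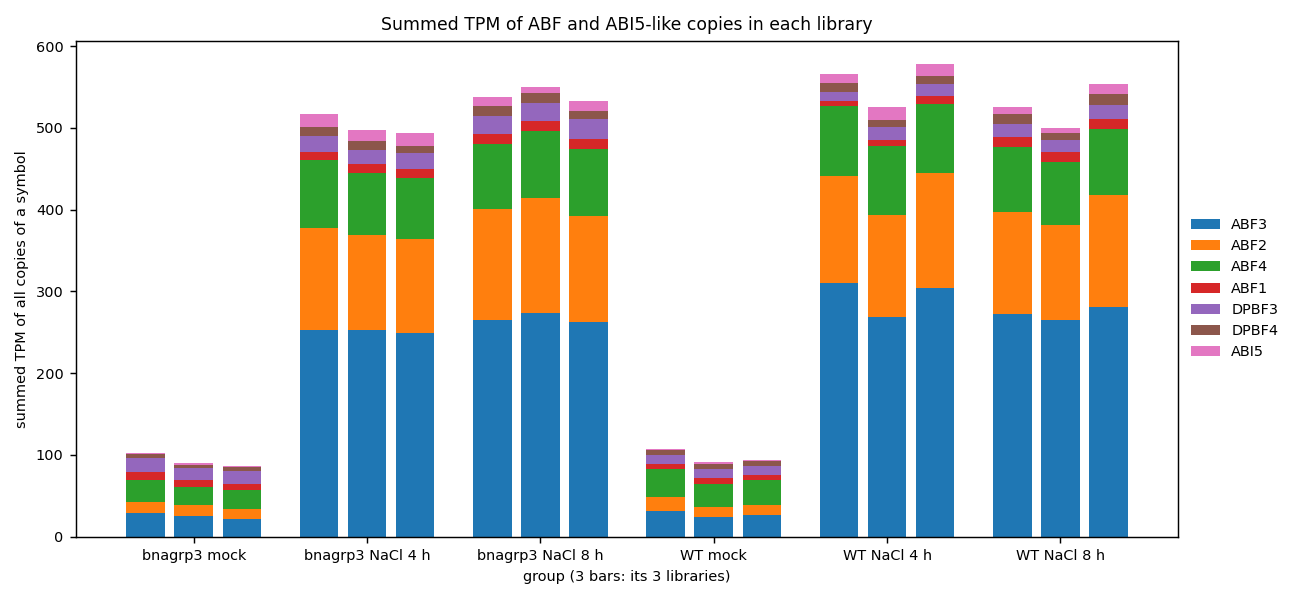
Summed TPM of the copies of each symbol, 1 bar per library, 3 libraries in each of 6 groups (DPBF2 and BZIP15, at most 0.59 and 0.19 TPM in sum, are not drawn). Mock bars reach 85.7 to 106.8 TPM and NaCl bars 494.2 to 578.2 TPM over all copies, with ABF3 (blue) the largest part of every NaCl bar.

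Of the 32 copies, 23 reached 1 TPM in at least 3 libraries and were tested, together with all 57923 genes that did, with limma on log2(TPM + 1) and Benjamini-Hochberg adjustment over all of them. This scale understates the change of weakly expressed genes, and SE stands for the standard error of the log2 difference. A copy was called at an adjusted p under 0.05. In bnagrp3, 19 of 23 copies were called at 4 h, against 52.2% of all genes. Of these 18 were higher and 1 lower, against 28.7% and 23.5%. At 8 h 20 copies were called, against 49.7%, with 19 higher and 1 lower, against 31.3% and 18.4%. In WT, 18 copies were called at 4 h, against 46.6% of all genes, with 17 higher and 1 lower, against 26% and 20.5%. At 8 h 19 copies were called, against 46.3%, with 18 higher and 1 lower, against 29% and 17.3%. The median log2 difference of the 23 copies was 1.18 at 4 h and 1.24 at 8 h in bnagrp3, where the median of all genes was 0.06 and 0.14. In WT the copies' median was 0.87 and 0.92, and that of all genes 0.05 and 0.14. Median-of-ratios rescaling moved the all-gene median at 8 h to 0.01 in both genotypes and the share of calls that were higher from 62.9% to 50.1% in bnagrp3 and from 62.6% to 50.2% in WT. Under it the copies were called 18 higher and 1 lower at 4 h and 19 and 1 at 8 h in bnagrp3, and 16 and 1 at both times in WT. Leaf transcripts moved with the same comparisons: Rubisco small subunit summed to 24016 to 33558 TPM in bnagrp3 NaCl libraries and 71422 to 77465 TPM in bnagrp3 mock, and to 20749 to 36987 TPM in WT NaCl libraries and 63894 to 78702 TPM in WT mock. Their part in the results was not tested.

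**Figure D2:**
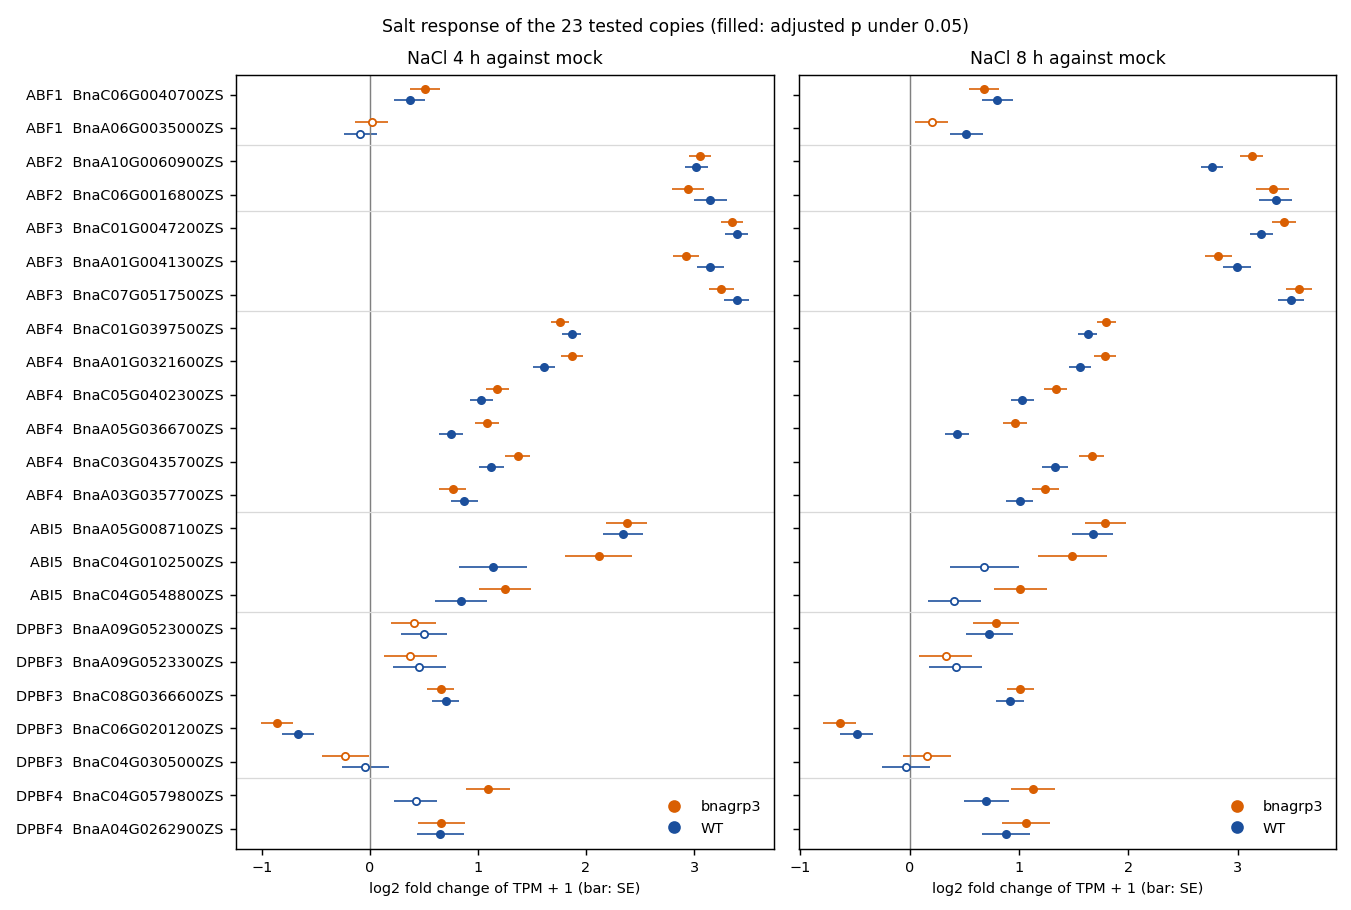
Log2 difference between NaCl and mock of TPM + 1 for the 23 tested copies at 4 h (left) and 8 h (right), with bnagrp3 above WT in each row, bars for 1 SE and filled points for an adjusted p under 0.05. All ABF2 and ABF3 copies lie between 2.76 and 3.56, the ABF4 copies between 0.43 and 1.87, and DPBF3 BnaC06G0201200ZS is the only copy with filled points below 0.

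ABF2 and ABF3, activators of ABRE promoters, rose most among the well expressed copies, and their NaCl and mock libraries did not overlap. The summed TPM was 9.004 to 10.4 times that of mock for ABF2 and 9.9 to 10.8 times for ABF3. ABF2 copy BnaA10G0060900ZS had 8.87, 7.77 and 8.41 TPM in bnagrp3 mock, 81.4, 73.2 and 75.1 at 4 h and 80.7, 80.6 and 80.2 at 8 h. In WT it had 10.3, 8.31 and 8.73 TPM in mock, 75.4, 83.8 and 83.5 at 4 h and 64.0, 59.4 and 80.4 at 8 h. Every NaCl library thus stood more than 5 times above every mock library. Its log2 differences to mock at 4 h and 8 h were 3.05 and 3.13 in bnagrp3 (SE 0.103) and 3.02 and 2.76 in WT (SE 0.103), each with an adjusted p of at most 3.94e-11. The second ABF2 copy, BnaC06G0016800ZS, was lower in level, at 3.69 to 5.31 TPM in bnagrp3 mock, 40.6 to 42.7 at 4 h and 50.0 to 59.9 at 8 h, and at 3.77 to 6.01, 40.5 to 57.8 and 56.4 to 60.5 TPM in WT. Its differences, 2.95 to 3.35, were of the same size.

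The 3 ABF3 copies were the largest group by TPM. BnaC01G0047200ZS, the most abundant of the 32 copies by its mean over all 18 libraries though not in mock, had 10.01, 8.38 and 8.36 TPM in bnagrp3 mock, 105.03, 102.4 and 92.9 at 4 h and 105.7, 106.2 and 103.0 at 8 h. In WT it had 11.8, 8.24 and 10.6 TPM in mock, 120.3, 110.02 and 118.8 at 4 h and 101.4, 96.9 and 109.3 at 8 h. Mock and NaCl libraries lay far apart, and the 4 h and 8 h libraries lay close together. BnaA01G0041300ZS had 8.21 to 11.3 TPM in bnagrp3 mock, 80.2 to 85.3 at 4 h and 75.8 to 79.2 at 8 h, and in WT 10.3 to 13.1, 90.8 to 122.1 and 90.8 to 101.6 TPM. BnaC07G0517500ZS had the largest rise of any of the 23 copies, 3.56 (SE 0.116, limma adjusted p = 9.26e-12) in bnagrp3 at 8 h, where it had 82.7, 87.9 and 83.4 TPM against 7.75, 5.83 and 5.39 TPM in bnagrp3 mock. In WT at 8 h it rose by 3.49 (adjusted p = 1.16e-11). Over the 5 copies of ABF2 and ABF3 all 20 differences to mock were called, the smallest at 2.76.

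All 6 copies of ABF4 (in Arabidopsis also named AREB2) were called higher in each of the 4 comparisons, by smaller steps. The leading pair, BnaC01G0397500ZS and BnaA01G0321600ZS, changed by 1.56 to 1.87. BnaC01G0397500ZS had 6.41, 5.86 and 5.49 TPM in bnagrp3 mock, 23.2, 22.6 and 21.4 at 4 h and 23.7, 22.9 and 22.5 at 8 h, and in WT 7.63, 6.06 and 6.13, 27.6, 26.8 and 25.6, and 23.2, 20.5 and 23.6 TPM. The copies BnaC03G0435700ZS and BnaC05G0402300ZS changed by 1.03 to 1.66. The smallest rise was that of BnaA05G0366700ZS in WT at 8 h, 0.43, beside 0.74 in WT at 4 h and 1.09 and 0.96 in bnagrp3. The WT value at 8 h (limma adjusted p = 0.00504) was no longer called after median-of-ratios rescaling (adjusted p = 0.0643) or quantile normalisation (adjusted p = 0.116). BnaA03G0357700ZS, the weakest ABF4 copy in bnagrp3 but not in WT, had 2.07, 1.34 and 1.75 TPM in bnagrp3 mock, 3.64, 3.77 and 3.37 at 4 h and 4.63, 5.21 and 6.46 at 8 h. In WT it had 3.15, 2.72 and 3.8 TPM in mock, 6.99, 6.01 and 7.08 at 4 h and 7.7, 7.23 and 7.35 at 8 h. It rose by 0.76 and 1.24 in bnagrp3 and 0.87 and 1.004 in WT.

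ABF1, known in Arabidopsis from cold, changed least of the ABF symbols. BnaC06G0040700ZS had 4.77, 4.89 and 3.83 TPM in bnagrp3 mock, 7.2, 6.11 and 7.14 at 4 h and 7.89, 7.1 and 8.36 at 8 h, and it rose by 0.51 and 0.68 there (limma adjusted p = 0.00668 and 0.000952). In WT it had 4.21, 3.93 and 2.88 TPM in mock, 3.95, 4.9 and 6.3 at 4 h and 7.08, 7.05 and 7.11 at 8 h. Its WT rise at 8 h was 0.80 (adjusted p = 0.000274). The WT libraries at 4 h overlapped mock, and that call, at 0.37 (adjusted p = 0.0447), ended when any of 14 of the 18 libraries was left out (adjusted p 0.0501 to 0.22, highest without WT NaCl 4 h replicate 3 and WT mock replicate 3), and after median-of-ratios or quantile rescaling (0.0939 and 0.128). The other copy, BnaA06G0035000ZS, stood at 2.63 to 5.87 TPM in all 18 libraries and among the NaCl comparisons with mock was called only in WT at 8 h, at 0.52 (adjusted p = 0.012). That call was lost without WT mock replicate 1 (adjusted p = 0.0552) and after both rescalings (0.055 and 0.0742).

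**Figure D3:**
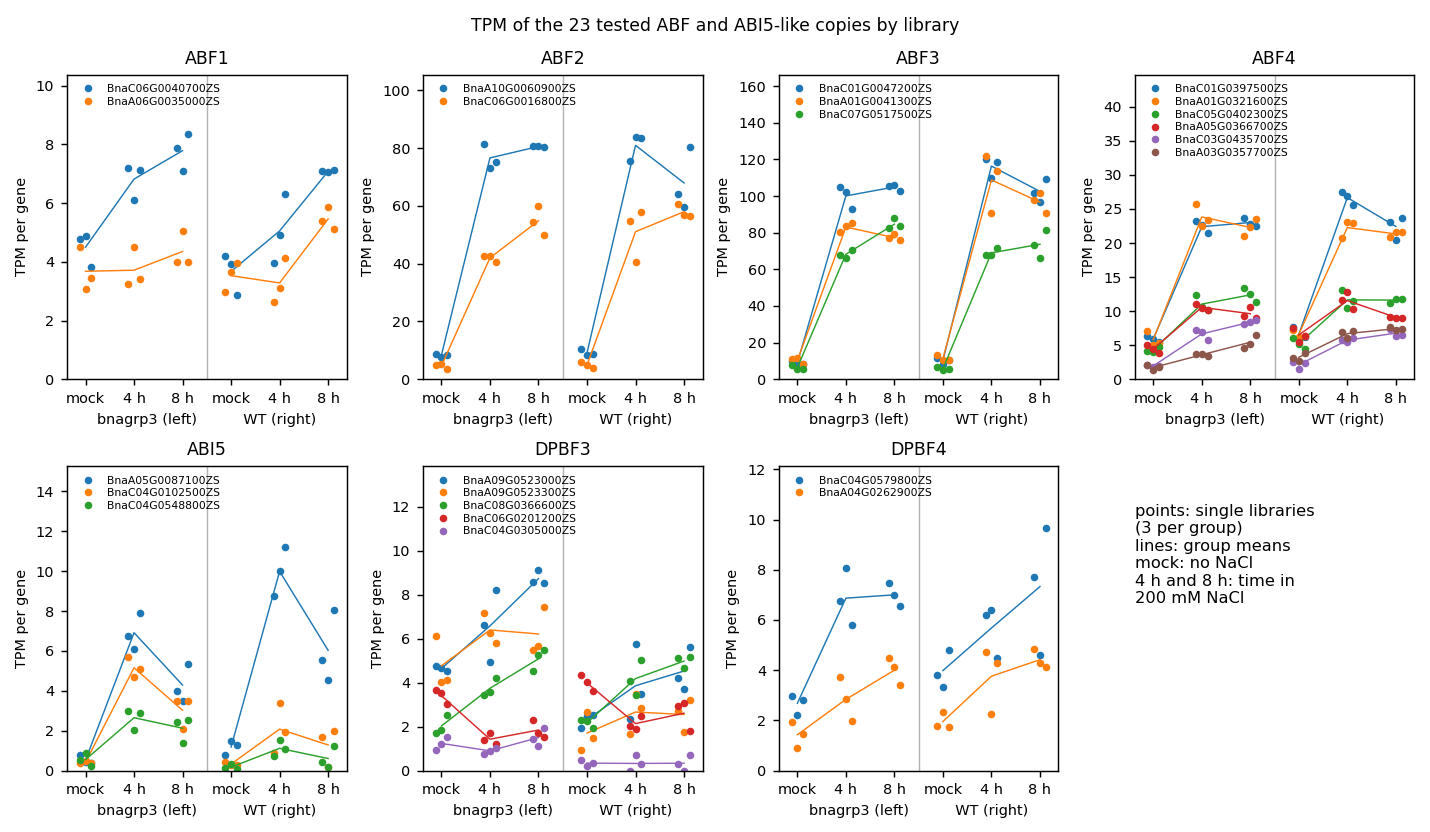
TPM of each of the 23 tested copies in every library (points), with lines through the group means, in 1 panel per symbol, bnagrp3 left of WT and each vertical axis starting at 0. ABF2 and ABF3 copies reach 40 TPM and more in every NaCl library, whereas the ABI5, DPBF3, DPBF4 and ABF1 copies stay under 12 TPM in all libraries.

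ABI5, the factor that in Arabidopsis arrests germination under ABA, was detected at low levels, and its 3 tested copies rose under salt in bnagrp3. The sum of its 5 copies was 1.68, 1.8 and 1.15 TPM in bnagrp3 mock, 15.8, 13.2 and 16.5 at 4 h and 10.6, 7.3 and 11.9 at 8 h. In WT the sum was 1.42, 2.18 and 1.62 TPM in mock, 11.1, 15.99 and 14.7 at 4 h and 8.61, 5.56 and 11.9 at 8 h. The leading copy, BnaA05G0087100ZS, had 0.76, 0.44 and 0.37 TPM in bnagrp3 mock, 6.75, 6.08 and 7.91 at 4 h and 4.01, 3.49 and 5.36 at 8 h. In WT it had 0.77, 1.48 and 1.29 TPM in mock, 8.77, 10 and 11.2 at 4 h and 5.53, 4.53 and 8.03 at 8 h. It rose by 2.38 and 1.79 in bnagrp3 and by 2.34 and 1.67 in WT (SE 0.190, limma adjusted p at most 4.57e-06). All its 8 h libraries lay below all its 4 h libraries of the same genotype.

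The C04 copies of ABI5 rose in bnagrp3 at both times and in WT were called at 4 h. BnaC04G0102500ZS had 0.4, 0.48 and 0.37 TPM in bnagrp3 mock, 5.69, 4.67 and 5.1 at 4 h and 3.5, 2.1 and 3.47 at 8 h, and in WT 0.41, 0.3 and 0.26, 0.89, 3.4 and 1.94, and 1.69, 0.2 and 1.96 TPM. The WT NaCl libraries were spread over more than 3-fold at 4 h and more than 9-fold at 8 h, with the highest values in the libraries nearest to bnagrp3. The differences were 2.12 and 1.49 in bnagrp3 and 1.13 (adjusted p = 0.00814) and 0.68 (adjusted p = 0.0902) in WT. Without those 2 libraries, which hold the highest values, the WT differences were 0.83 (adjusted p = 0.0313) and 0.44 (adjusted p = 0.235). BnaC04G0548800ZS rose by 1.25 and 1.01 in bnagrp3, and in WT the differences were 0.84 (adjusted p = 0.0104) and 0.41 (adjusted p = 0.189), or 0.71 (adjusted p = 0.0209) and 0.15 (adjusted p = 0.621) without the same libraries.

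DPBF3 and DPBF4, seed factors in Arabidopsis, showed mixed changes. DPBF3 copy BnaC06G0201200ZS was the only tested copy called lower under salt. It had 3.66, 3.51 and 3.05 TPM in bnagrp3 mock, 1.37, 1.69 and 1.22 at 4 h and 2.32, 1.7 and 1.51 at 8 h, and in WT 4.33, 4.01 and 3.62, 2.05, 1.88 and 2.48, and 2.94, 3.09 and 1.8 TPM. No NaCl library reached a mock library of its genotype. The differences were -0.86 and -0.64 in bnagrp3 and -0.67 and -0.48 in WT, the last (limma adjusted p = 0.0154) not called without WT mock replicate 1 (0.0543) or WT NaCl 8 h replicate 3 (0.084). DPBF3 copy BnaC08G0366600ZS rose instead, by 0.65 and 1.01 in bnagrp3 and 0.70 and 0.92 in WT. It had 1.73 to 2.52 TPM in bnagrp3 mock, 3.42 to 4.22 at 4 h and 4.51 to 5.49 at 8 h, and 1.95 to 2.32, 3.45 to 5.03 and 4.66 to 5.18 TPM in WT.

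Of the other DPBF3 copies, BnaA09G0523000ZS was called at 8 h only, at 0.79 in bnagrp3 (adjusted p = 0.00628) and 0.73 in WT (adjusted p = 0.0108, or 0.0537 without WT NaCl 8 h replicate 3). BnaA09G0523300ZS, at -0.04 to 0.46 over all its salt and time contrasts, and BnaC04G0305000ZS, at -0.23 to 0.39, were called in none of them. DPBF4 copy BnaC04G0579800ZS rose by 1.09 and 1.13 in bnagrp3 and by 0.70 in WT at 8 h (adjusted p = 0.0103, or 0.0583 without WT NaCl 8 h replicate 3), while the WT value at 4 h was 0.42 (adjusted p = 0.104). DPBF4 copy BnaA04G0262900ZS rose by 0.66 and 1.06 in bnagrp3 and 0.65 and 0.88 in WT. Both of its 4 h calls depended on single libraries. That in bnagrp3 ended without bnagrp3 mock replicate 2 or bnagrp3 NaCl 4 h replicate 1 or 2 (adjusted p 0.0505 to 0.102), and that in WT without WT mock replicate 1 or 3 or WT NaCl 4 h replicate 1 or 3 (adjusted p 0.0656 to 0.102).

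The 9 copies under the filter were 2 of ABI5, 2 of BZIP15, 2 of DPBF2, 2 of DPBF3 and 1 of DPBF4. ABI5 copy BnaC04G0107200ZS was listed at 0 in all 18 libraries. ABI5 copy BnaA04G0233000ZS had 0 to 0.17 TPM in bnagrp3 mock and 0.33 to 0.61 in bnagrp3 NaCl libraries, and 0 to 0.12 TPM in WT mock and 0.44 to 1.07 in WT NaCl libraries, with no overlap of NaCl and mock in either genotype. BZIP15 copies BnaA06G0444600ZS and BnaC04G0214300ZS reached at most 0.1 and 0.15 TPM, and DPBF2 copies BnaA06G0189500ZS and BnaC03G0598400ZS at most 0.23 and 0.47 TPM. DPBF4 copy BnaC04G0023300ZS reached at most 0.47 TPM. DPBF3 copy BnaA04G0033800ZS was listed at 0 in all 9 bnagrp3 libraries and stood at 0.15 to 0.84 TPM in all 9 WT libraries. When the filter was dropped it was called lower in bnagrp3 at 4 h (-0.67, limma adjusted p = 0.00192) and 8 h (-0.51, adjusted p = 0.0109). The fit pools the spread over all groups, and the bnagrp3 values, all 0, have none. These p-values can therefore be too small. DPBF3 copy BnaA07G0196900ZS was likewise listed at 0 in all bnagrp3 libraries and reached at most 0.5 TPM in WT. At such levels a value near 0 may be a copy with few reads, and depth is unknown.

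Between 8 h and 4 h few copies were called. In bnagrp3, 2 of 23 copies were called, against 15.3% of all genes, 1 of them higher and 1 lower, against 10.3% and 5.05%. In WT 2 were called, against 14.7%, again 1 higher and 1 lower, against 8.99% and 5.75%. ABI5 copy BnaA05G0087100ZS was lower at 8 h than at 4 h, with a difference of -0.59 in bnagrp3 (limma adjusted p = 0.049) and -0.67 in WT (adjusted p = 0.0289). The bnagrp3 call ended when any of 14 of the 18 libraries was left out (adjusted p 0.0502 to 0.179, highest without bnagrp3 NaCl 8 h replicate 2), and the WT call without WT NaCl 4 h replicate 2 or 3 or WT NaCl 8 h replicate 1 or 2 (0.0689 to 0.121). With a pseudocount of 0.1 the bnagrp3 call (0.113) and the WT call (0.0878) also ended. ABF4 copy BnaA03G0357700ZS was higher at 8 h in bnagrp3, by 0.48 (adjusted p = 0.0196), but not without bnagrp3 NaCl 4 h replicate 3 (0.0685), without bnagrp3 NaCl 8 h replicate 3 (0.0864) or after either rescaling (0.0651 and 0.0808). ABF1 copy BnaA06G0035000ZS was higher at 8 h in WT, by 0.61 (adjusted p = 0.0159, or 0.0547 without WT NaCl 4 h replicate 1 and 0.0573 without WT NaCl 8 h replicate 2, and 0.0713 without both WT libraries nearest to bnagrp3). Median-of-ratios rescaling moved the share of calls over all genes that were higher from 67.0% to 45.5% in bnagrp3 and from 61.0% to 45.4% in WT, and the number of copies called to 1 in bnagrp3 and 5 in WT. In WT the number was 0 without WT NaCl 8 h replicate 2, 4 without WT mock replicate 1, 3 without WT mock replicate 3 or WT NaCl 8 h replicate 3, and 1 without WT NaCl 4 h replicate 1 or 2 or WT NaCl 8 h replicate 1. In bnagrp3 it was 0 without bnagrp3 NaCl 4 h replicate 3, and 1 or 2 without any other library.

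Between genotypes, the number of copies called was near the share of all genes called. In mock 5 of 23 copies were called, against 21.5% of all genes, with 3 higher and 2 lower in bnagrp3 than in WT, against 9.1% and 12.4%. At 4 h 6 were called, against 23.6%, with 4 higher and 2 lower, against 9.89% and 13.7%. At 8 h 5 were called, against 23.4%, with 4 higher and 1 lower, against 11.4% and 12%. These counts depended on single libraries. At 4 h there were 2 calls without bnagrp3 NaCl 4 h replicate 1 or 3 or WT NaCl 4 h replicate 1, 3 without WT NaCl 4 h replicate 3, and 8 without WT NaCl 4 h replicate 2. At 8 h there were 3 without WT NaCl 8 h replicate 2, and 8 without both WT libraries nearest to bnagrp3. The copies called lower were ABF3 and ABF4 copies, and those called higher were ABI5 and DPBF3 copies. Other copies of ABI5 and DPBF3 lay lower in bnagrp3 without a call. At 4 h the leading ABI5 copy, BnaA05G0087100ZS, had 6.08 to 7.91 TPM in bnagrp3 and 8.77 to 11.2 in WT. DPBF3 copy BnaC06G0201200ZS had 1.22 to 1.69 TPM in bnagrp3 and 1.88 to 2.48 in WT at 4 h. The summed ABI5 TPM overlapped between genotypes in every treatment. The summed ABF3 TPM at 4 h was 252.9, 252.5 and 248.8 in bnagrp3 and 310.2, 268.5 and 303.8 in WT. At 8 h the sums overlapped, at 265.2, 273.3 and 262.2 in bnagrp3 and 272.5, 264.8 and 281.3 in WT, and so did those in mock.

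**Figure D4:**
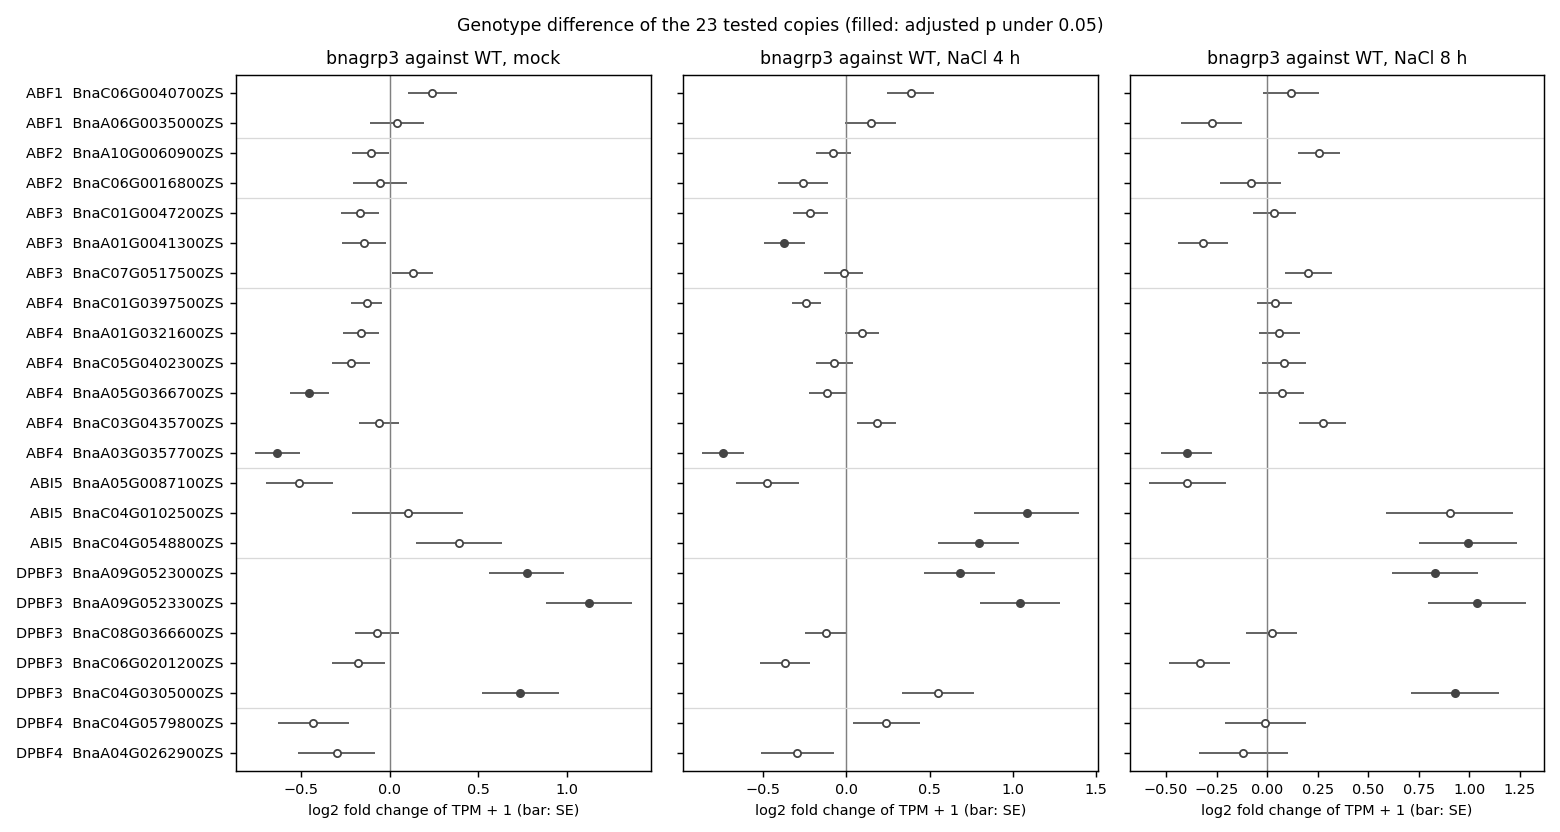
Log2 difference between bnagrp3 and WT of TPM + 1 for the 23 tested copies in mock, at 4 h and at 8 h of NaCl, with bars for 1 SE and filled points for an adjusted p under 0.05. ABF4 BnaA03G0357700ZS lies below 0 in all panels, and filled points above 0 are ABI5 and DPBF3 copies of chromosomes C04 and A09.

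ABF4 copy BnaA03G0357700ZS was lower in bnagrp3 in every treatment, with differences of -0.64 in mock (SE 0.125, limma adjusted p = 0.00223), -0.74 at 4 h (adjusted p = 0.000635) and -0.40 at 8 h (adjusted p = 0.0321). No bnagrp3 library reached a WT library of the same treatment. The 8 h call ended without bnagrp3 NaCl 8 h replicate 1 or 2 or any 1 of the 3 WT NaCl 8 h libraries (adjusted p 0.0602 to 0.14), and without both WT libraries nearest to bnagrp3 (0.0551). It also ended with a pseudocount of 0.1 (0.0588) and with only the groups compared in the fit (0.0756). ABF4 copy BnaA05G0366700ZS had 5.07, 4.44 and 3.87 TPM in bnagrp3 mock and 7.59, 5.53 and 6.4 in WT mock, a difference of -0.46 (adjusted p = 0.00903), and was not called under NaCl (-0.11 and 0.07). Its mock call ended with only the groups compared in the fit (0.0812). ABF3 copy BnaA01G0041300ZS was lower in bnagrp3 at 4 h, at 80.2, 83.8 and 85.3 TPM against 122.1, 90.8 and 113.5 TPM in WT, a difference of -0.37 (adjusted p = 0.0413). That call ended when any of 9 libraries was left out, among them WT NaCl 4 h replicate 1 (0.172) and 3 (0.124). The call also ended with median-of-ratios rescaling (0.0686), with a pseudocount of 0.1 (0.05004) and without the filter (0.0514). With only the groups compared in the fit it ended as well (0.108). The difference was -0.50 without the 2 WT libraries nearest to bnagrp3, of which the 4 h one held the lowest WT value.

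The copies called higher in bnagrp3 were 3 of DPBF3 and 2 of ABI5, and all 5 lie on A09 or C04. DPBF4 copy BnaC04G0579800ZS, also on C04 and tested, was called in no genotype comparison. DPBF3 copy BnaA09G0523300ZS had 6.11, 4.05 and 4.14 TPM in bnagrp3 mock and 0.95, 2.68 and 1.48 in WT mock, 7.16, 6.24 and 5.8 in bnagrp3 and 1.68, 3.48 and 2.83 in WT at 4 h, and 5.5, 5.69 and 7.46 in bnagrp3 and 2.71, 1.75 and 3.19 in WT at 8 h. No WT library reached a bnagrp3 library of the same treatment, and the differences were 1.12, 1.04 and 1.04 (SE 0.242, adjusted p = 0.00408, 0.00636 and 0.00619). Its near neighbour by identifier, BnaA09G0523000ZS, had 4.75, 4.66 and 4.52 TPM in bnagrp3 mock and 1.93, 2.49 and 2.52 in WT mock. It had 6.61, 4.93 and 8.21 TPM in bnagrp3 and 2.35, 5.75 and 3.48 in WT at 4 h, and 8.57, 9.11 and 8.52 in bnagrp3 and 4.23, 3.73 and 5.63 in WT at 8 h. At 4 h the groups overlapped through WT replicate 2. Its differences were 0.77 (adjusted p = 0.0173), 0.68 (0.0315) and 0.83 (0.0104). The first ended without WT mock replicate 1 (0.0681) and the last without WT NaCl 8 h replicate 2 (0.0525).

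DPBF3 copy BnaC04G0305000ZS had 0.93, 1.23 and 1.54 TPM in bnagrp3 mock and 0.46, 0.2 and 0.35 in WT mock, 0.76, 0.89 and 1.04 in bnagrp3 and 0, 0.69 and 0.28 in WT at 4 h, and 1.44, 1.13 and 1.93 in bnagrp3 and 0.28, 0 and 0.72 in WT at 8 h. WT lay below bnagrp3 without overlap in every treatment. The difference was 0.74 in mock (adjusted p = 0.0259), 0.55 at 4 h (adjusted p = 0.0827) and 0.93 at 8 h (adjusted p = 0.0062). The mock call ended without bnagrp3 mock replicate 2 or 3 or WT mock replicate 2 or 3 (0.0605 to 0.0975), and with a pseudocount of 0.1 (0.13). ABI5 copy BnaC04G0102500ZS differed by 0.10 in mock (adjusted p = 0.869), 1.08 at 4 h (adjusted p = 0.0223) and 0.90 at 8 h (adjusted p = 0.0511). ABI5 copy BnaC04G0548800ZS had 3.01, 2.03 and 2.91 TPM in bnagrp3 and 0.74, 1.52 and 1.08 in WT at 4 h, and 2.44, 1.38 and 2.55 in bnagrp3 and 0.43, 0.17 and 1.21 in WT at 8 h. It differed by 0.39 in mock (adjusted p = 0.291), 0.79 at 4 h (adjusted p = 0.0287) and 0.99 at 8 h (adjusted p = 0.00813). The 4 h calls of both ABI5 copies and of BnaA09G0523000ZS each ended without bnagrp3 NaCl 4 h replicate 1 or 3 or WT NaCl 4 h replicate 1 or 3, with adjusted p of 0.0559 to 0.113 for BnaC04G0102500ZS, 0.0726 to 0.116 for BnaC04G0548800ZS and 0.0783 to 0.155 for BnaA09G0523000ZS. With a pseudocount of 0.1 the 4 h calls of BnaC04G0102500ZS (0.0926) and BnaC04G0548800ZS (0.128) also ended. With only the groups compared in the fit, the 4 h calls of BnaC04G0102500ZS (0.0865), BnaC04G0548800ZS (0.057) and BnaA09G0523000ZS (0.199) ended. So did the 8 h call of BnaC04G0548800ZS (0.0652).

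The WT NaCl libraries in which these 5 copies were highest are those that stood nearest to bnagrp3. In WT mock the medians of the 326 transcripts lay close together, and the 5 copies had no common order. Relative to the bnagrp3 mean, BnaC04G0305000ZS had 0, 0.77 and 0.312 in WT NaCl 4 h replicates 1 to 3 and 0.187, 0 and 0.48 in WT NaCl 8 h replicates 1 to 3, where the 326 transcripts had 0, 0.67 and 0.233, and 0.168, 0 and 0.369. BnaC04G0102500ZS had 0.173, 0.66 and 0.377 at 4 h and 0.559, 0.0662 and 0.648 at 8 h. All 5 copies were highest in WT NaCl 4 h replicate 2 among the 4 h libraries and in WT NaCl 8 h replicate 3 among the 8 h libraries. In WT mock replicates 1 to 3 the 326 transcripts had 0.232, 0.254 and 0.214. There BnaC04G0102500ZS, in another order, had 0.984, 0.72 and 0.624, and BnaC04G0548800ZS, in the same order, had 0.22, 0.585 and 0.128. Leaving out the 2 WT NaCl libraries takes away the highest WT value of each copy, so larger differences follow from that choice and are no test. The 4 h and 8 h differences were then 1.38 and 1.14 for BnaC04G0102500ZS, 0.93 and 1.25 for BnaC04G0548800ZS, 0.95 and 0.97 for BnaA09G0523000ZS, 1.2 and 1.17 for BnaA09G0523300ZS and 0.74 and 1.13 for BnaC04G0305000ZS. Of the 326 transcripts, 72 lie on A09 and 34 on C04, which hold 3648 and 3011 of the 57923 genes tested. Of all genes tested, 9.1%, 9.89% and 11.4% were higher in bnagrp3 in mock, 4 h and 8 h libraries. The same shares were 11.3%, 9.76% and 14.4% on A09 and 10.1%, 11.9% and 15% on C04. Of the genes on A04, where DPBF3 copy BnaA04G0033800ZS lies, 17.9%, 23.2% and 19.5% were lower in bnagrp3, against 12.4%, 13.7% and 12% of all genes. Chromosomes other than A04, A09 and C04 were not counted singly. The part of these differences among WT libraries in the results was not tested.

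**Figure D5:**
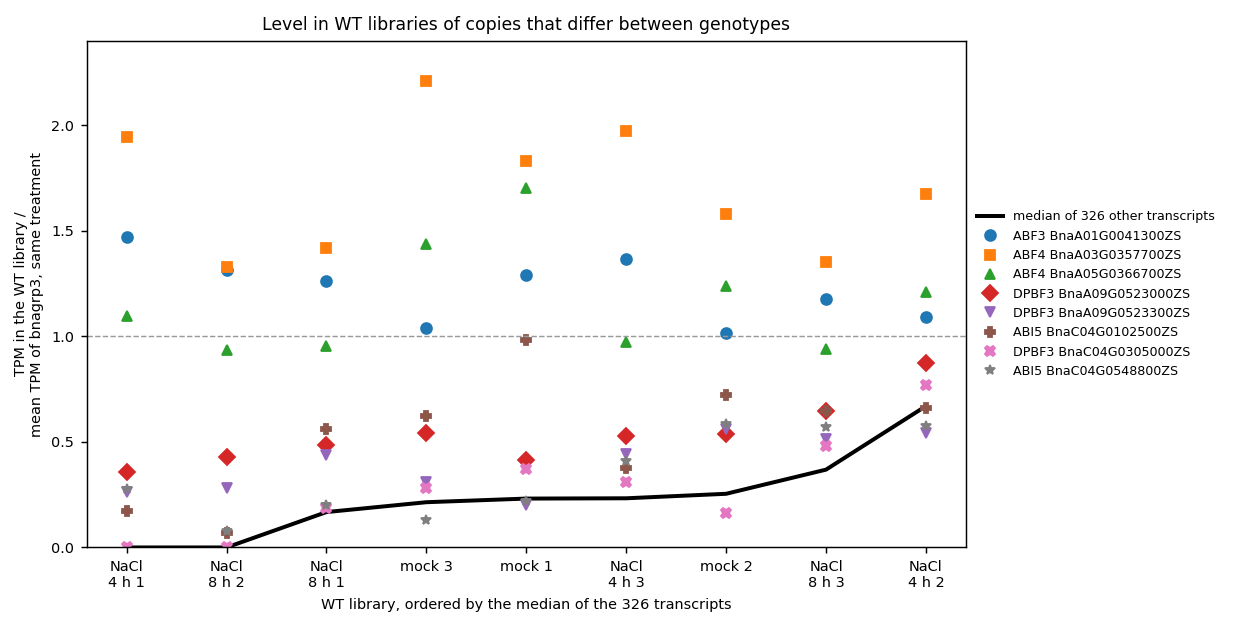
TPM in each WT library over the mean TPM of the 3 bnagrp3 libraries of the same treatment, for the 8 copies called in any genotype comparison (points), with WT libraries ordered by the median of the 326 other transcripts (line). Points of the ABI5 and DPBF3 copies lie below 1 in all 9 libraries, and ABF4 BnaA03G0357700ZS lies between 1.33 and 2.21.

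No copy's salt response was called different between bnagrp3 and WT. With limma, 0 of 23 copies passed at 4 h, where 2.46% of all genes did, and 0 at 8 h, where 1.38% did. At an unadjusted p under 0.05 there were 3 copies at 4 h and 2 at 8 h, beside 17.2% and 13.8% of all genes. The 4 h ones were ABI5 BnaC04G0102500ZS, whose rise was larger in bnagrp3 by 0.98 (SE 0.444, adjusted p = 0.273), DPBF4 BnaC04G0579800ZS, larger by 0.67 (SE 0.286, adjusted p = 0.243), and ABF4 BnaA05G0366700ZS, larger by 0.34 (SE 0.157, adjusted p = 0.283). The 8 h ones were ABF4 BnaA05G0366700ZS, larger by 0.53 (SE 0.157, adjusted p = 0.13), and ABF2 BnaA10G0060900ZS, larger by 0.36 (SE 0.146, adjusted p = 0.281). For the ABF3 copies the difference in response lay between -0.23 and 0.21, with an SE of 0.150 to 0.175. With 3 libraries a group, a p above the threshold does not show that the responses were alike.

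The A and C copies of a symbol did not always keep the same balance. The A copy of ABF3 gave 40% of the ABF3 sum in bnagrp3 mock, 33.1% at 4 h and 29% at 8 h. Its WT shares were 41.6%, 37% and 35.4%. The A copy of ABF2 gave 64.4%, 64.6% and 59.5% in bnagrp3 and 65.2%, 61.3% and 54% in WT. For ABI5 the A copies gave 37.6%, 48.5% and 48.1% of the sum in bnagrp3 and 71.6%, 77.1% and 78.3% in WT. These shares are descriptions of group means without a test. The sources used here do not say how reads that fit several homeologs were assigned, and levels of near-identical copies are uncertain.

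Genes of the ABA pathway around the factors were counted in the same fit, where 52.2% and 49.7% of all genes were called in bnagrp3 at 4 h and 8 h and 46.6% and 46.3% in WT. Of 53 PYL receptor genes, 28 were tested, and in bnagrp3 6 were called higher and 13 lower at 4 h and 1 and 14 at 8 h, with 2 and 12, and 0 and 16, in WT. In total 67.9% and 53.6% of them were called in bnagrp3 and 50% and 57.1% in WT, near the share of all genes in WT at 4 h and bnagrp3 at 8 h. The median log2 differences were -0.57 and -0.75 in bnagrp3 and -0.43 and -0.73 in WT. PYL4 copy BnaA04G0246400ZS fell to 0.85, 0.45 and 0.28 TPM in bnagrp3 at 4 h, against 10.1, 10.9 and 14.0 TPM in bnagrp3 mock, a log2 difference of -3.05 (adjusted p = 4e-07). The PP2C list, which also holds 2 copies of a probable phosphatase outside clade A, had 28 of 41 genes tested, with 27 called higher in bnagrp3 at 4 h, 26 at 8 h and 26 at each time in WT, and none lower. Its median was 2.99 and 3.01 in bnagrp3 and 3.03 and 2.87 in WT. PP2CA copy BnaC05G0488500ZS had 238.3, 230.5 and 231.6 TPM in bnagrp3 at 4 h, against 18.6, 17.6 and 14.4 TPM in mock. Among 29 tested SnRK2 kinases, 20 and 21 were higher and 2 and 2 lower in bnagrp3 at 4 h and 8 h, and 20 and 21 higher and 3 and 2 lower in WT, with medians of 0.64 and 0.72 in bnagrp3 and 0.48 and 0.57 in WT. SRK2F copy BnaA01G0009300ZS had 18.2, 13.4 and 13.4 TPM in WT at 4 h and 1.12, 0.88 and 0.8 TPM in WT mock.

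Genes of proteins that act on the factors differed by list. AFP proteins bind ABI5 and in Arabidopsis promote its removal, and 17 and 16 of 18 tested AFP genes were higher in bnagrp3 at 4 h and 8 h and 18 and 14 in WT, with none lower. Their median was 2.61 and 2.07 in bnagrp3 and 2.42 and 1.75 in WT. AFP3 copy BnaC09G0030400ZS had 3.73, 3.88 and 4.33 TPM in bnagrp3 mock, 139.6, 150.04 and 150.8 at 4 h and 106.1, 103.0 and 120.1 at 8 h, and in WT 4.76, 5.8 and 5.13, 264.2, 178.3 and 238.5, and 154.02, 150.4 and 132.1 TPM. Of the AFP genes, 9 were lower at 8 h than at 4 h in bnagrp3 and 13 in WT, against 5.05% and 5.75% of all genes. Among 11 tested ligases and adaptors of ABI5 turnover, 6 and 7 were higher in bnagrp3 and none lower, and 5 and 8 higher and 0 and 1 lower in WT. The shares called at 4 h, 54.5% in bnagrp3 and 45.5% in WT, were near those of all genes, 52.2% and 46.6%. At 8 h the shares were 63.6% in bnagrp3 and 81.8% in WT, against 49.7% and 46.3% of all genes. KEG copy BnaA03G0054000ZS, a ubiquitin ligase for ABI5, rose by 0.34 and 0.54 in bnagrp3 and 0.24 and 0.51 in WT. Of the other bZIP factors of the group, 5 and 5 of 6 tested were higher in bnagrp3 and 6 and 5 in WT. GBF4 copy BnaC07G0225800ZS had 8.93, 8.76 and 9.18 TPM in bnagrp3 mock, 17.4, 18.1 and 17.1 at 4 h and 20.1, 17.4 and 18.4 at 8 h. Of 6 ABI3 and ABI4 genes 1 was tested, ABI4 copy BnaC03G0231100ZS, and it was called lower in each comparison, with differences of -1.06 and -0.96 in bnagrp3 and -1.29 and -1.54 in WT.

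A list of 58 genes was taken by symbols of ABRE targets in Arabidopsis, such as RAB18 and HVA22C. Whether each is a target here was not tested. Of these genes 49 were tested, with 28 and 30 higher and 2 and 2 lower in bnagrp3 at 4 h and 8 h. In WT 31 and 32 were higher and 2 and 3 lower. In total 61.2% and 65.3% of them were called in bnagrp3, against 52.2% and 49.7% of all genes. The WT shares were 67.35% and 71.4%, against 46.6% and 46.3% of all genes. The largest called fall was that of HVA22C copy BnaC06G0362800ZS in WT at 8 h, -1.14, with a mean of 5.06 TPM against 12.2 in WT mock. The median was 0.92 and 1.38 in bnagrp3 and 1.99 and 1.72 in WT. Dehydrin gene RAB18 copy BnaA09G0101100ZS had 44.7, 42.3 and 40.4 TPM in bnagrp3 mock, 3233, 2691 and 2558 at 4 h and 8118, 8854 and 9026 at 8 h. In WT it had 33.9, 28.5 and 31.4 TPM in mock, 4460, 3019 and 4483 at 4 h and 9749, 10368 and 10494 at 8 h. RAB18 copy BnaC02G0556300ZS had 0.44 to 0.64 TPM in bnagrp3 mock and 197 to 706 TPM in bnagrp3 NaCl libraries, and 0.35 to 0.99 TPM in WT mock and 1185 to 1863 TPM in WT NaCl libraries. The difference in response was called for 6 of the 49 listed genes at 4 h and 4 at 8 h, all lower in bnagrp3 than in WT, where 2.46% and 1.38% of all genes were called in either direction.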

How the data were processed

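Values are TPM per gene and library as deposited by the authors, and each of the 18 columns summed to between 999997.9 and 1000002.1. Per the submitters' processing notes, fastp, HISAT2 and featureCounts were used. The sources used here give no versions, genome build, annotation or strand handling. TPM keeps no read depth, so precision was judged from replicate spread, and overlapping or antisense genes are uncertain. No pair of libraries was identical.

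Genes reaching 1 TPM in at least 3 of 18 libraries (57923) were fitted as log2(TPM + 1), 1 mean per group, with limma 3.58.1 in R 4.3.3 (moderated test with intensity trend, two-sided, Benjamini-Hochberg). NaCl was compared with mock, and 8 h with 4 h, within bnagrp3 and within WT. The genotypes were compared within each treatment, and their NaCl responses with each other. The fit was first tested on simulated data with 1 spread per gene in all groups. Such data do not tell how the fit behaves where the spread differs between groups. Members and lists were chosen with earlier results of these data known. Every tested copy, those under the filter by their range, and per pathway list the most abundant gene and the largest called rise and fall could be named. Alternatives were another pseudocount (0.1), no filter, a 5 TPM filter, median-of-ratios and quantile rescaling, fitting the compared groups alone, a replicate block, and leaving out libraries.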

Additional observations from a re-analysis of the deposited data

How the results depend on the processing

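Of 96 differences called for single copies, each was recomputed under 8 other settings where it could be and without each of 18 libraries. Of 2477 such values, 2356 were called in the same direction, 121 were in the same direction but not called, and 0 were reversed. Many of them could not reverse. Leaving out a library outside the groups compared does not change the log2 difference itself. Nor does another filter, the replicate block or a fit of the compared groups alone. The number reversed is thus no measure of how stable the directions are. The 121 belong to 22 differences, and 80 of them came from leaving out 1 library. None belongs to ABF2, to ABF3 under NaCl against mock, or to ABI5 BnaA05G0087100ZS under NaCl against mock.

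Counts of copies called for 8 h against 4 h in bnagrp3 (2) were 1 with a pseudocount of 0.1, without the filter, and with median-of-ratios or quantile rescaling. In WT (2) they were 1 with a pseudocount of 0.1, 5 with median-of-ratios rescaling and 0 when only the groups compared were fitted, a fit with fewer libraries. For bnagrp3 against WT at 4 h (6) they were 3 with a pseudocount of 0.1 and 2 when only the groups compared were fitted. At 8 h (5) they were 8 without the filter, which adds weak DPBF3 and DPBF2 copies, 3 with a filter of 5 TPM, which leaves 18 copies, and 8 without the 2 WT NaCl libraries nearest to bnagrp3. Other causes were not tested. Leaving out 1 library gave 18 to 19, 20 to 20, 16 to 19 and 16 to 20 calls for bnagrp3 4 h, bnagrp3 8 h, WT 4 h and WT 8 h against mock, 0 to 2 and 0 to 4 for 8 h against 4 h in bnagrp3 and WT, 4 to 6, 2 to 8 and 3 to 7 for bnagrp3 against WT in mock, at 4 h and at 8 h, and 0 to 0 for both differences of responses.

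With the replicate number as a block the counts were 19, 20, 17 and 19 against mock, 2 and 3 for 8 h against 4 h, 5, 7 and 5 between genotypes and 0 and 0 for the responses, and 1 call was lost, ABF1 BnaC06G0040700ZS in WT at 4 h (limma adjusted p = 0.0651). Deviations of the 45 same-numbered pairs correlated at -0.431 to 0.0656, 0 of them over 0.1. The lowest value was that of WT NaCl 4 h replicate 2 and WT NaCl 8 h replicate 2. No such value was taken for pairs with different numbers, so whether same-numbered samples share more than a number was not tested. Depth is unknown, so copies near 0 TPM cannot be given a detection limit.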
